A study of Mus musculus with 2 samples.

Results

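The Hox clusters of the mouse carry a small set of microRNA genes between and inside their homeobox genes, and 6 of them were followed here by name: Mir10a, Mir10b, Mir196a-1, Mir196a-2, Mir196b and Mir615. All 6 were found among the 1973 genes counted. The RNA came from the liver of B6NCrl embryos at 13.5 days, with male and female embryos pooled and no genetic change or treatment named, and was selected to be shorter than 30 bases. There were 2 libraries, labelled as biological replicates 1 and 2 and drawn from separate biosamples of 1 group. The design therefore holds no comparison between conditions, and levels are given as descriptions.

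Hox genes encode transcription factors that give cells of the embryo their position along the body axis, and within a cluster their order follows that axis, with low-numbered genes at the 3′ end used in anterior regions and high-numbered genes in posterior ones. MicroRNAs are short RNAs cut from hairpins, and they lower the output of messenger RNAs that pair with bases 2 to 8 of the microRNA, the seed. miR-10 and miR-196 are ancient residents of these clusters and are known to act on Hox messenger RNAs. miR-10a and miR-196b are also known from blood stem and progenitor cells, which are present in the fetal liver at this age, and miR-615 comes from an intron of Hoxc5.

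The mature sequences, from RefSeq on build GRCm38.p6, show why these genes must be read in families. They are printed 5′ to 3′ with the seed in capitals, and all 6 genes had an entry.
miR-10a-5p: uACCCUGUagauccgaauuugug
miR-10b-5p: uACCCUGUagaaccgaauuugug
miR-196a-5p, the same from Mir196a-1 and Mir196a-2: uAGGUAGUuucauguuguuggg
miR-196b-5p: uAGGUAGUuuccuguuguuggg
miR-615-3p: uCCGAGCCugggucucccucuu

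miR-10a-5p and miR-10b-5p share their seed and 22 of 23 bases, and the single difference is U12A, counted from 1 at the 5′ end. miR-196a-5p and miR-196b-5p also share their seed and 21 of 22 bases, and differ by A12C. In both families the base that differs is at position 12, outside the seed. Among 1738 mature sequences of 1058 genes in the same table, no gene outside the 6 carried the seed of miR-10, miR-196 or miR-615-3p. The opposite arms of Mir196a-1 and Mir196a-2 are far less alike.
miR-196a-1-3p: cAACGACAucaaaccaccugau
miR-196a-2-3p: uCGGCAACaagaaacugccuga

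These likenesses limit what the counts can show. Reads that mapped to several places, 36.7% of all reads in replicate 1 and 32.0% in replicate 2, were assigned to no gene. The hairpins of Mir196a-1 and Mir196a-2 share a run of 22 bases that is exactly miR-196a-5p, so a read of that sequence has 2 equal homes. Their counts therefore set no level for miR-196a. Mir10a and Mir10b share no run beyond 15 bases, and Mir196b shares none beyond 12 with any other microRNA hairpin, so full-length reads of these have a single exact match among hairpins. A row pools both arms of a hairpin.

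Mir10a was by far the most abundant of the 6, followed by Mir10b, Mir196b and Mir615. Levels are in CPM, counts on the strand of the gene per 1000000 such counts in the library. These totals were 2607403 counts in replicate 1 and 4286742 in replicate 2, and a count of 3, the limit that a count of 0 allows, equals 1.15 and 0.700 CPM. Together the 6 genes held 1.12% of counts in replicate 1 (95% Clopper-Pearson interval 1.11 to 1.13) and 1.05% in replicate 2 (1.04 to 1.06). Counting intervals cover counting error only. In whole tissue, fewer cells of a type and less RNA per cell cannot be told apart.

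**Figure D1:**
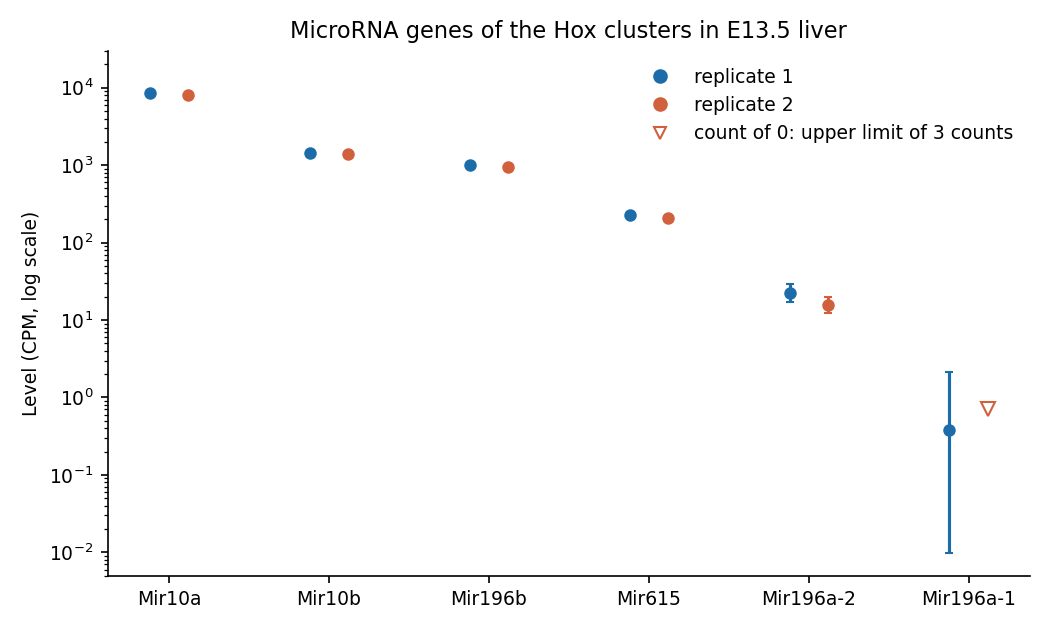
Level of each microRNA gene of the Hox clusters in CPM on a log scale, 1 point per library, with bars for the 95% exact Poisson interval of the count. The order from Mir10a to Mir196a-1 is the same in both libraries, and the triangle marks the limit of 0.700 CPM for the count of 0 of Mir196a-1 in replicate 2.

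Mir10a (ENSMUSG00000065519.1), the miR-10 gene of the HoxB cluster, had 22222 counts in replicate 1 and 34192 in replicate 2. That is 8523 and 7976 CPM, or 8249 ± 386 CPM (SD, n = 2). It ranked 37th of 1973 genes by mean level, at place 34 in replicate 1 and 38 in replicate 2. Mir10a alone made up 76.1% of the counts of the 6 genes in replicate 1 and 75.8% in replicate 2. Its hairpin lies on chromosome 11 at 96317165 to 96317274 (plus strand, mm10), and no other annotated transcript of GENCODE M21 covers it.

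Mir10b (ENSMUSG00000065500.2), its counterpart in the HoxD cluster, had 3707 and 5927 counts. Its level was 1422 CPM in replicate 1 and 1383 CPM in replicate 2, or 1402 ± 27.6 CPM (SD, n = 2), at place 85 by mean. The hairpin lies on chromosome 2 at 74726070 to 74726137 (plus strand), within introns of annotated transcripts of Hoxd4 and Hoxd3. Mir10a exceeded Mir10b 5.99-fold in replicate 1 (95% counting interval 5.79 to 6.21) and 5.77-fold in replicate 2 (5.61 to 5.93). The log2 ratio was 2.56 ± 0.04 (SD, n = 2). The mature 5′ arms of the pair differ by the single base U12A and the 3′ arms at 3 bases, and each count pools both arms. For reads of the 5′ arm, this ratio rests on that single base being read and aligned correctly, which was not tested.

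Mir196b (ENSMUSG00000065443.1), the miR-196 gene of the HoxA cluster, had 2631 and 4006 counts. Its level was 1009 CPM in replicate 1 and 935 CPM in replicate 2, or 972 ± 52.7 CPM (SD, n = 2), at place 100. The hairpin lies on chromosome 6 at 52230081 to 52230165 (minus strand). It overlaps exons of non-coding transcripts assigned to Hoxa9 and an intron of another. Mir10b exceeded Mir196b 1.41-fold and 1.48-fold, an order that held in both libraries with a gap of 430 CPM between the means against a summed SD of 80.3 CPM.

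The miR-196a genes had few counts of their own. Mir196a-2 (ENSMUSG00000065488.1; chromosome 15, 102973350 to 102973434, plus strand, in an intron of a non-coding transcript assigned to Hoxc5) had 59 counts in replicate 1 and 68 in replicate 2. That is 22.6 and 15.9 CPM, or 19.2 ± 4.78 CPM (SD, n = 2). Mir196a-1 (ENSMUSG00000065546.1; chromosome 11, 96265164 to 96265265, plus strand, in no other annotated transcript) had 1 count in replicate 1 and 0 in replicate 2. Mir196b thus held 97.8% and 98.3% of the counts assigned to the miR-196 genes. That share does not give the share of miR-196b among miR-196 molecules, since reads of miR-196a-5p with no other sequence have 2 places and were not counted.

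Mir615 (ENSMUSG00000076010.1), within an intron of protein-coding Hoxc5 on chromosome 15 at 103014910 to 103015001 (plus strand), had 590 and 902 counts. Its level was 226 CPM in replicate 1 and 210 CPM in replicate 2, or 218 ± 11.2 CPM (SD, n = 2), at place 165. Mir196b exceeded it 4.46-fold and 4.44-fold, the steadiest ratio between neighbours in the order. Mir615 in turn exceeded Mir196a-2 by a log2 ratio of 3.53 ± 0.29 (SD, n = 2), with 95% counting intervals of 7.64-fold to 13.3-fold in replicate 1 and 10.4-fold to 17.2-fold in replicate 2. All 5 steps in the order held in both libraries and exceeded the summed SD of the 2 genes compared. The order of Mir615 against the miR-196a genes refers to assigned counts only.

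By cluster, HoxB led at 8250 ± 387 CPM (SD, n = 2), carried by Mir10a. HoxD followed at 1402 ± 27.6 CPM from Mir10b alone, then HoxA at 972 ± 52.7 CPM from Mir196b alone, and HoxC at 238 ± 16.0 CPM, of which Mir615 gave most. HoxB and HoxC sums leave out any miR-196a-5p reads that could not be placed. By family, the miR-10 pair held 88.8% of the counts of the 6 genes in replicate 1 and 89.0% in replicate 2, and the miR-196 genes held 9.21% and 9.03%.

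Position within the clusters was read from the coding spans of 38 Hox genes in GENCODE M21. The miR-10 genes take the same place in their clusters, just upstream of a group 4 gene: Mir10a lies 1495 bases from the coding span of Hoxb4 and Mir10b 1141 bases from that of Hoxd4. The miR-196 genes lie upstream of group 9 genes, with Mir196b between Hoxa9 and Hoxa10, Mir196a-2 between Hoxc9 and Hoxc10, and Mir196a-1 between Hoxb9 and Hoxb13. Mir615 lies inside the coding span of Hoxc5, between Hoxc4 and Hoxc6. Genes at matching places differed in level, as the miR-10 pair shows.

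Ordered by their place as a percentage of the cluster span, the genes showed neither a steady rise nor a steady fall in level. Measured from the coding end of the lowest-numbered Hox gene used here to the coding start of the highest-numbered one, Mir615 lies at 18.3% of the span in its cluster, Mir10a at 28.9%, Mir10b at 39.8%, Mir196a-2 at 54.5%, Mir196a-1 at 59.0% and Mir196b at 68.7%. By this percentage, the gene at the lowest place, Mir615, stood at 218 CPM, and the gene at the highest, Mir196b, at 972 CPM. The highest level, that of Mir10a, lay between them. The spans are unlike, since HoxB starts at Hoxb1 and HoxC at Hoxc4, so the percentages do not mark matching places across clusters. By neighbouring Hox genes, Mir615, inside Hoxc5, lies on the 5′ side of the place of the miR-10 genes, which stand beside Hoxb4 and Hoxd4. With 6 genes, of which 2 have uncertain counts, no measure of association was computed.

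**Figure D2:**
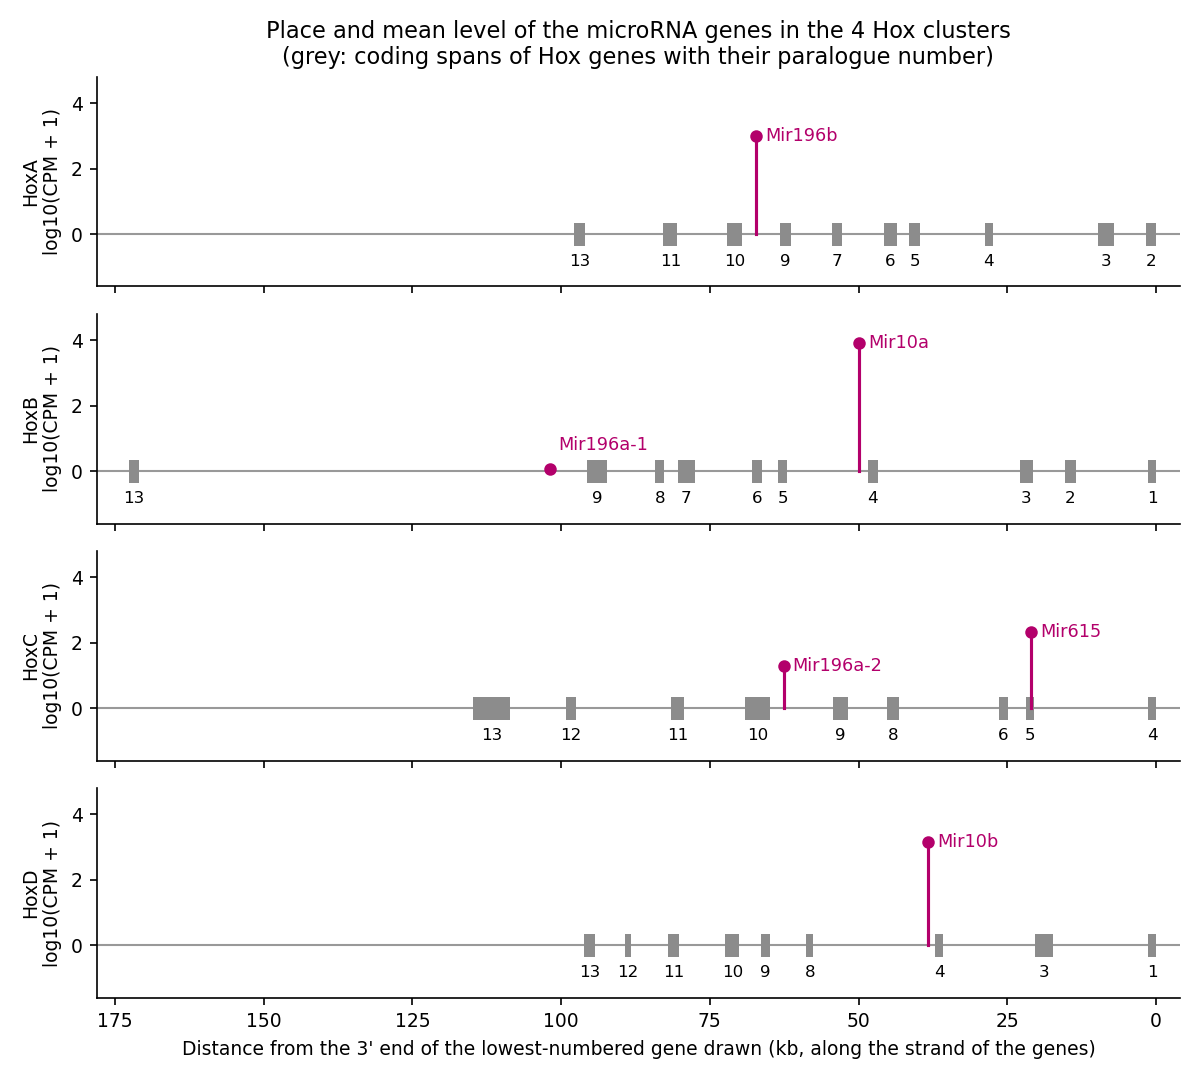
The 4 Hox clusters drawn to scale from the lowest-numbered gene used, with distance in kb on the x axis, coding spans of Hox genes in grey with their paralogue number, and the mean level of each microRNA gene as log10(CPM + 1) on the y axis. The miR-10 genes stand beside group 4 genes in HoxB and HoxD at 8249 and 1402 CPM, and the miR-196 genes stand upstream of group 9 genes in HoxA, HoxB and HoxC.

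The letters of the seed matches were then sought in the Hox messenger RNAs, because miR-10 and miR-196 are known for acting on them. The longest annotated 3′ UTR of each protein-coding gene in GENCODE M21 was searched on the strand of the transcript, and 38 Hox genes and 21044 genes in all had one. The match to bases 2 to 8 of miR-196, ACTACCT, was present in 8 of 38 Hox genes (21.1%), against 6.09% of all genes. Per length this was 0.327 matches per kb in Hox 3′ UTRs and 0.0454 per kb in all, with median lengths of 963 and 960 bases. The match to miR-10, ACAGGGT, was in 3 Hox genes (7.89%), against 12.5% of all, or 0.0818 and 0.0997 matches per kb. The match to miR-615-3p, GGCTCGG, was in 1 Hox gene, Hoxb4 (2.63%), against 2.30% of all, or 0.0273 and 0.0163 matches per kb. A match is a description of letters, Hox genes are related to each other by descent, and no messenger RNA was measured here.

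The 12 miR-196 matches lay in Hoxa4, Hoxa5, Hoxa7, Hoxa9, Hoxb1, Hoxb6, Hoxb7 and Hoxc8. All 8 genes lie on the 3′ side of the miR-196 gene of their own cluster, a side that holds 21 of the 29 Hox genes used in the clusters with a miR-196 gene; this was looked at after the matches were seen. Hoxa7, in the cluster of Mir196b, had 4 of the 12. They are shown because no other Hox 3′ UTR searched held as many, as the stretch opposite the whole microRNA on the minus strand of chromosome 6 (mm10), with the seed match in capitals.
Hoxa7, chr6:52215400-52215421: ggcacagccaaaatACTACCTa
Hoxa7, chr6:52215363-52215384: agaggcactcccaaACTACCTa
Hoxa7, chr6:52215231-52215252: aaaccatgatcaatACTACCTa
Hoxa7, chr6:52215210-52215231: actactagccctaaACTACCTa

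Hoxb8, a HoxB gene, had no such seed match but the longest pairing with miR-196a-5p of any Hox 3′ UTR searched. All 22 positions of the microRNA can pair there, 21 as Watson-Crick pairs and 1 as a G:U pair at position 5, within the seed. The best stretch in any other of them by this measure paired at 19 positions, counting G:U pairs. The Hoxb8 stretch is the one place where miR-196a pairs over its whole length in these windows. miR-196b-5p, which differs by A12C, has no pair at position 12 there. The stretch is on the plus strand of chromosome 11, with Watson-Crick pairs to miR-196a-5p in capitals.
Hoxb8, chr11:96284888-96284909: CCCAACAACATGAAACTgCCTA

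For miR-10 the 3 matches were in Hoxa3, Hoxb3 and Hoxd1. Hoxb3 and Hoxd1 lie on the 3′ side of the miR-10 gene of their own cluster, and HoxA has no miR-10 gene. That side holds 7 of the 19 Hox genes used in the clusters with a miR-10 gene, and 2 genes are too few to show a pattern of place. Hoxb3 and Hoxd1 are shown as examples with the seed match in capitals (plus strands).
Hoxb3, chr11:96347287-96347309: tgacttaacgtgaaaACAGGGTa
Hoxd1, chr2:74764930-74764952: tagcggaacaaatccACAGGGTa

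The nearest relatives of miR-10 outside the Hox clusters are miR-99 and miR-100, which were set beside it. Aligned with miR-10a-5p, miR-100-5p has 20 identical bases, 2 mismatches and 1 gap, and its seed differs.
miR-100-5p: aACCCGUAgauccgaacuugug

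Mir99a stood at 24161 ± 1868 CPM (SD, n = 2), above Mir10a in both libraries. Mir99b, at 9201 ± 247 CPM, was also above it in both, though by less: 9376 against 8523 CPM in replicate 1 and 9026 against 7976 CPM in replicate 2. Mir100, at 3858 ± 416 CPM, lay between Mir10a and Mir10b. Other genes were listed with these relatives, and whether each shares a locus with one of them was not checked here. Mir125a stood at 1132 ± 201 CPM, Mir125b-1 at 170 ± 0.383 CPM and Mir125b-2 at 180 ± 5.40 CPM. Mirlet7a-2 stood at 154 ± 4.87 CPM, Mirlet7c-1 at 38.0 ± 1.68 CPM and Mirlet7c-2 at 14.1 ± 2.54 CPM. Mir125b-1 and Mir125b-2 give the same mature microRNA, as do Mirlet7c-1 and Mirlet7c-2, and Mirlet7a-2 gives the same one as Mirlet7a-1, so their counts are uncertain like those of miR-196a. Mirlet7e was not analysed here.

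**Figure D3:**
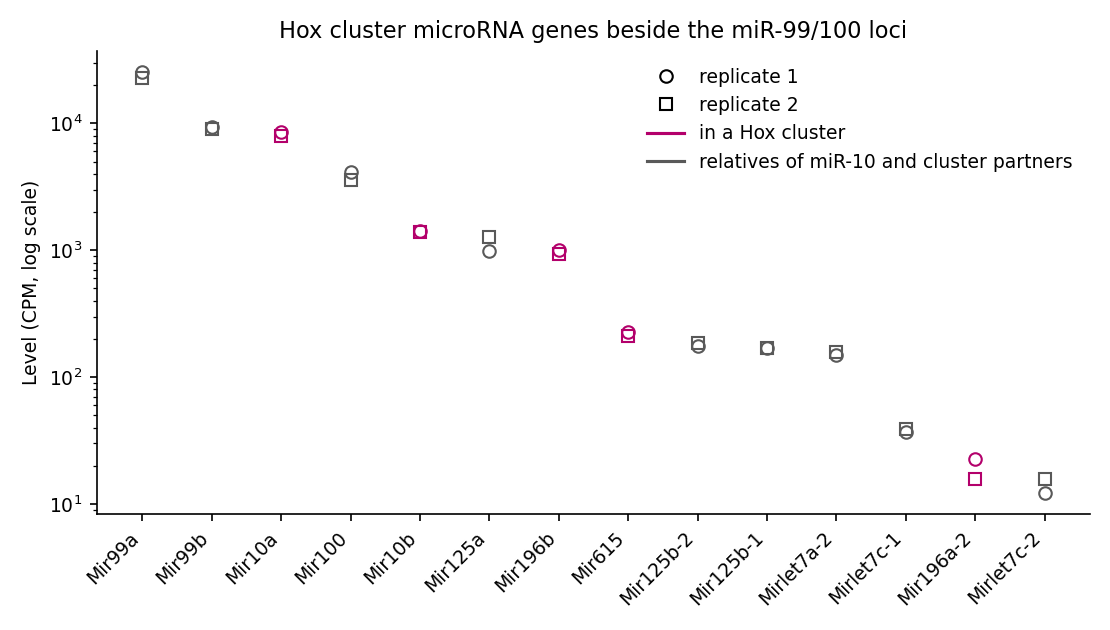
Level in CPM on a log scale of the 5 detected Hox cluster microRNA genes and of 9 genes listed as miR-99/100 relatives and partners, with 1 symbol per library. Mir10a lies below Mir99a and Mir99b and above Mir100 in both libraries.

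The genes nearest in level over both libraries, by distance in log2(CPM + 1), were Mir92-1 and Mir382 for Mir10a at 0.03 and 0.04, and Mir429 and Mir494 for Mir10b at 0.12 and 0.13. For Mir196b they were Mir25 and Mir542 at 0.08 each, for Mir615 Mir874 and Mir146 at 0.06 and 0.07, and for Mir196a-2 Mir190b and Mir6240 at 0.11 and 0.19. With 2 libraries of 1 group this likeness is one of level.

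The libraries were compared with each other to see how far these levels repeat. Of 711 genes with a count, 20.1% were called different (adjusted p under 0.05, exact binomial test with Benjamini-Hochberg adjustment), 11.5% as lower and 8.58% as higher in replicate 2. Of the 6 genes, 2 were called, Mir10a and Mir196b, both lower in replicate 2. Among the 367 genes with at least 10 counts in each library, which are the ones deep enough to be called at small differences, 37.6% were called. That test counts reads only and compares 2 libraries, not conditions.

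Mir10a fell by 0.10 in log2 in replicate 2, with a 95% counting interval from -0.12 to -0.07 (adjusted p = 2.75e-13, exact binomial test). Mir196b fell by 0.11 (interval -0.18 to -0.04, adjusted p = 0.0134, exact binomial test), and this call was lost with TMM scaling (adjusted p = 0.116, exact binomial test). Neither gene differed by more than 1.08-fold. Mir10b differed by -0.04 (adjusted p = 0.420, exact test), Mir615 by -0.10 (adjusted p = 0.399, exact test) and Mir196a-2 by -0.51 on its few counts (adjusted p = 0.184, exact test). The median difference of these 5 genes was 1.08-fold, against 1.13-fold over the 367 genes. All 5 were lower in replicate 2, as were 204 of the 367. Between the same libraries the summed erythroid markers went from 17989 to 33035 CPM. That difference was carried by Mir451a, at 10750 and 26342 CPM, while Mir144, at 6405 and 5873 CPM, was called lower in replicate 2, and the median log2 difference of the 3 erythroid genes was -0.02. Their part in these small differences was not tested.

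**Figure D4:**
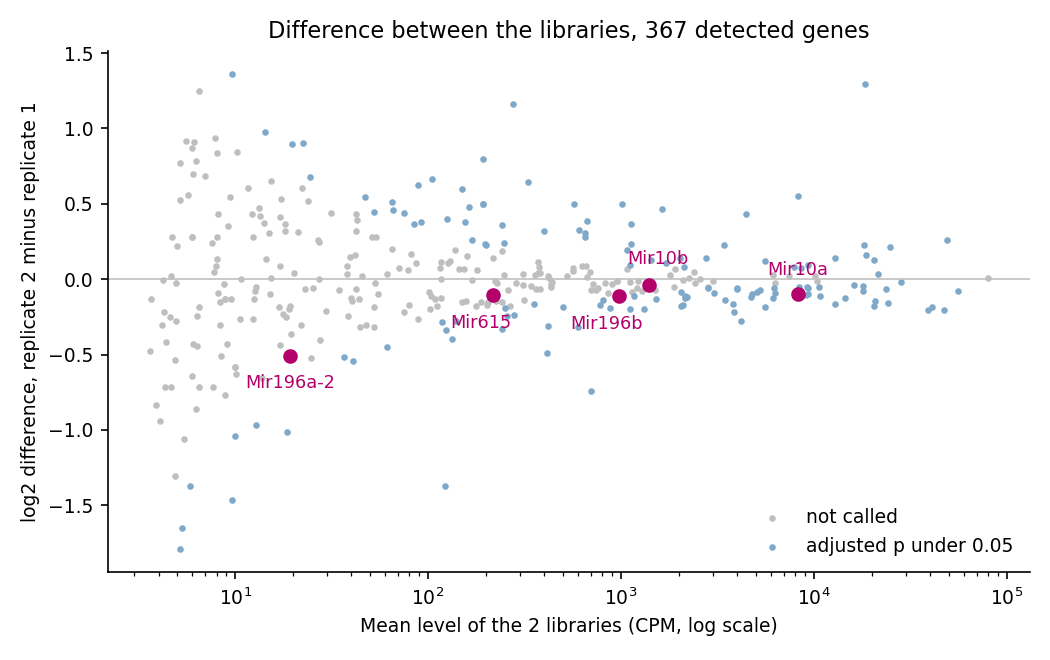
Difference between the libraries in log2, replicate 2 minus replicate 1, against mean level in CPM on a log scale for 367 detected genes, with called genes in blue and the 5 detected Hox cluster microRNA genes named. Mir10a, Mir10b, Mir196b and Mir615 lie between -0.11 and -0.04, and Mir196a-2, with fewer counts, lies at -0.51.

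The tissue label was read against marker microRNAs. The hepatocyte list summed to 84568 and 85378 CPM and the endothelial list to 58209 and 55232 CPM. Mir126a alone gave 57502 and 54545 CPM of the endothelial sum. The erythroid list, whose higher sum in replicate 2 came from Mir451a, summed to 17989 and 33035 CPM. The leukocyte list summed to 10188 and 10376 CPM, without Mir142, which was not analysed here. Markers of other cell types that a dissected piece could hold were summed too. The mesenchymal and smooth muscle list summed to 24825 and 23859 CPM, with 5 of 6 genes detected. The gut epithelium and pancreas list summed to 3990 and 4567 CPM with 7 of 7 detected. The muscle list summed to 1158 and 775 CPM with 3 of 6 detected. Most of that sum came from Mir206, at 871 and 522 CPM, and Mir499, at 277 and 234 CPM. Both were called lower in replicate 2, and 1 gene of the muscle list was called higher. The neural list summed to 155 and 120 CPM, with 1 of 6 detected and 4 at 0 counts. Mir1a-2 and Mir9-1, also listed, were not analysed here. Copies that give the same mature microRNA, such as Mir124a-2 and Mir124a-3, have uncertain counts like those of miR-196a. Low counts of other genes in the muscle list, and of genes in the neural list, therefore do not show that those microRNAs were absent. The part of each cell type in the level of the Hox cluster microRNAs was not tested.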

How the data were processed

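Small RNA of 2 libraries of embryonic liver was sequenced. The deposited tables give raw read counts per gene, made by the authors on mm10 with the M4 release of GENCODE, per the file headers and labels, as reads on the strand of the gene, on the opposite strand and both; aligner and counting program: not given in the sources used here. Reads unmapped, mapped to several places or outside genes were left out of totals. Names and positions came from GENCODE M21 on the same build, which matched 1894 of 1973 identifiers. Same-strand counts were scaled to CPM. Genes needed 10 counts or more in both libraries to be called detected.

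Each gene's split of counts between libraries was set against the split of totals in an exact binomial test (two-sided), adjusted over 711 genes. Tested on simulated Poisson counts of 679 genes for this comparison, it called 92% of genes changed 1.5-fold, 98% of those changed 2-fold and 1.25% of unchanged ones. The changed genes were drawn only from those with higher counts, and no variation between replicates beyond counting was simulated. These percentages therefore do not cover changed genes with few counts or real differences between replicates. An exact two-sided test over 2 libraries cannot go below p = 0.5, so none was run on levels. Scaling alternatives used edgeR 4.0.16 and DESeq2 1.42.0, other steps Python 3.11.15 and scipy 1.17.1. One Hox gene is not reported here and was left out of the positions and the 3′ UTR search. Named were the 6 genes, the 2 genes nearest each in level, and the lists of relatives and markers. The members and lists were chosen with earlier results of these data known.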

Additional observations from a re-analysis of the deposited data

Results flagged for a closer look

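Opposite-strand counts, which enter none of the levels above, reached 6 at Mir10a in replicate 2, more than the 3 counts that a count of 0 allows. This is 0.0175% of the 34198 counts at the gene on either strand. Replicate 1 had 1 such count at Mir10a, and the other 5 genes had 0 in both libraries.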

How the results depend on the processing

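The order of the 6 genes was the same with counts from both strands and in each library alone, the alternatives run for it. With the total of all reads as denominator, Mir10a, Mir10b, Mir196b, Mir615 and Mir196a-2 stood at 2810, 478, 331, 74.4 and 6.55 CPM. With counts from both strands, which enlarge the totals, Mir10a, Mir10b, Mir196b and Mir615 stood at 7389, 1256, 870 and 196 CPM and the 6 genes held 0.973% of counts. The call of Mir196b between the libraries was lost with TMM scaling (log2 difference -0.080, adjusted p = 0.116, exact binomial test) and DESeq2 size factors (-0.084, adjusted p = 0.0963, exact test). With at least 1 count in each library, 559 genes were detected in place of 367. The other 59 values tried kept their direction and call or moved by less than 1 SD, or for counts by less than 1.5 times. Leaving out a library moves a mean of 2 by less than 1 SD by construction. No paired analysis was possible because there is a single group. Depth limits Mir196a-2, with 59 and 68 counts, and Mir196a-1, with 1 and 0.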
